A study of Mus musculus with 53 samples.

Results

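RNA sequencing compared mouse embryonic fibroblasts (MEFs), cells cultured from mouse embryos, that were labelled as an Anp32e knockout (KO) or as wild type (WT), after both had received a control siRNA labelled NT. The comparison rests on 6 of the 53 samples of the series, 3 KO and 3 WT libraries, and was described across the 12668 genes of the deposited table that reached at least 1 RPKM (reads per kilobase of gene, scaled to the library's total) in at least 3 of its 12 libraries. The other 6 libraries of that table are KO and WT cells given an siRNA labelled H2AZ, in which H2afz was at 16.6 to 30.4 RPKM and which carry the same genotypes. A second table, in FPKM, holds 2 KO and 2 WT libraries of cells labelled DMSO, a solvent. The other samples, CUT&Tag profiles and RNA of cells labelled DAC, were not used here. No allele, strain, embryo age, siRNA dose or number of embryos or clones behind a genotype is stated in the labels, nor is the meaning of NT, taken here as the control siRNA. The labels call the 6 libraries biological replicates without saying whether they are separate cultures. The p-values with NT siRNA thus measure only the spread between libraries of a group, fitted over all 12 siRNA libraries.

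ANP32E is a histone chaperone of the acidic nuclear phosphoprotein family that binds the histone variant H2A.Z and takes it off chromatin, the opposite of the work done by the SRCAP and p400 complexes, which put it in. H2A.Z lies at the nucleosomes beside active and poised promoters, and in this field its placement is studied together with DNA methylation, from which it is largely kept apart. Comparing KO with WT cells under a control siRNA asks which transcripts differ between the genotypes when H2A.Z itself is not depleted.

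Anp32e (ENSMUSG00000015749, chr3:95929245-95947387 in mm10) was at 21.4, 18.6 and 18.1 RPKM in the 3 WT libraries and at 5.68, 4.53 and 5.01 in the 3 KO libraries. The groups did not overlap, but reads of the gene were present in every KO library. On the scale used for all tests, log2(RPKM + 1), the difference KO minus WT was −1.74 ± 0.11 (standard error; limma adjusted p = 1.6e-07). Both relatives of the targeted gene also fell. Anp32a was at 29.3, 25 and 24.6 RPKM in WT and 19.8, 18 and 15.6 in KO (−0.54 ± 0.09, limma adjusted p = 0.00022). Anp32b was at 52.5, 56.9 and 50.1 in WT and 44.1, 41.8 and 46.6 in KO (−0.26 ± 0.06, limma adjusted p = 0.00241), a call that ended when every library was centred on its median gene (−0.14). Of the 2 genes that encode H2A.Z, H2afz did not pass the test, with 203, 199 and 203 RPKM in WT and 199, 198 and 184 in KO (−0.06 ± 0.05, and 0.07 after centring). H2afv was higher in KO, at 21.7, 22.1 and 23.7 RPKM against 19, 15.5 and 17.1 (0.37 ± 0.12, limma adjusted p = 0.0144). That call ended without WT library 2 (0.31) or KO library 3 (0.34).

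The 2 groups also differed in sex-linked genes. Xist, the noncoding RNA of X inactivation, which female cells make, was at 6.33, 4.45 and 4.22 RPKM in WT and at 0.00144, 0 and 0 in KO. Ddx3y, a helicase gene of the Y chromosome, was at 0 in all 3 WT libraries and at 6.73, 3.08 and 5.38 in KO, at least 1105-fold higher when the WT group is set at the 3 reads that a count of 0 allows. Eif2s3y and Uty, also Y-linked, had 2 reads and 1 read in the WT group and averaged 4.91 and 2.04 RPKM in KO. The X-linked partners Ddx3x (108, 94.5 and 92.1 against 52.6, 37.5 and 38.5 RPKM) and Eif2s3x (104, 105 and 98.1 against 50.1, 44 and 43.1) were lower in KO by 1.19 and 1.15 on the log2 scale. WT libraries thus held Xist and almost no reads of these Y-linked genes, and KO libraries the reverse. Of the 6 tested genes of chromosome Y, 4 were higher in KO and 1 was lower. Sex, the origin of the cultures and the genotype cannot be told apart in any difference below.

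The 6 libraries held 38133785 to 45682652 reads, recovered from the steps between the deposited values, so 1 read in a gene of 1 kb was worth 0.0219 to 0.0262 RPKM. Replicates of a group correlated across genes at 0.9938 to 0.9963, where genes are not independent replicates. Library 1 of each group stood apart from the other 2: on the third principal component of the 12 libraries, which held 3.3% of the variance, WT library 1 lay at 7.4 and KO library 1 at 11.6, against −7.7 to −3.6 for the other 4. Of 18 fibroblast markers 16 were measured, with a summed level of 2017 to 2100 RPKM in WT and 2704 to 2839 in KO, and Fap was under 1 RPKM in both groups. The epithelial markers Epcam and Cdh1, the leukocyte marker Ptprc and the endothelial markers Pecam1 and Cdh5 were under 1 RPKM in all 6 libraries. The RNA of the signal recognition particle (7SL) took 14.1 to 15.94% of reads in WT and 17.95 to 21.44% in KO. Such a share lowers the RPKM of every other gene, so calls are given also after median centring, which moved a gene by 0.12 on the log2 scale.

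At a limma adjusted p under 0.05, 3004 of the 12668 genes (23.7%) rose in KO and 5122 (40.4%) fell, 64.1% in all. After median centring 4288 (33.8%) were higher and 3780 (29.8%) lower, so the share of higher genes among the called went from 37% to 53.1%. With the 7SL reads left out of the library totals 3733 were higher and 4357 lower. Most differences were small: 92.2% of the called genes differed by less than 1 on the log2 scale, the median of all genes was −0.096, and the quartiles were −0.37 and 0.16. By at least 2-fold on this scale, 256 genes (2.02%) were higher and 379 (2.99%) lower. All 3 KO libraries lay above all 3 WT libraries in 3233 genes (25.5%) and below them in 5230 (41.3%). Without library 1 of both groups, 2715 genes were higher and 5019 lower, of which 2626 and 4773 were also called with all libraries. The plot sets each gene's change beside its mean level over both groups. The largest rises belonged to genes close to 0 in WT. On this scale a large rise needs a clear KO level and a large fall a clear WT level.

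**Figure D1:**
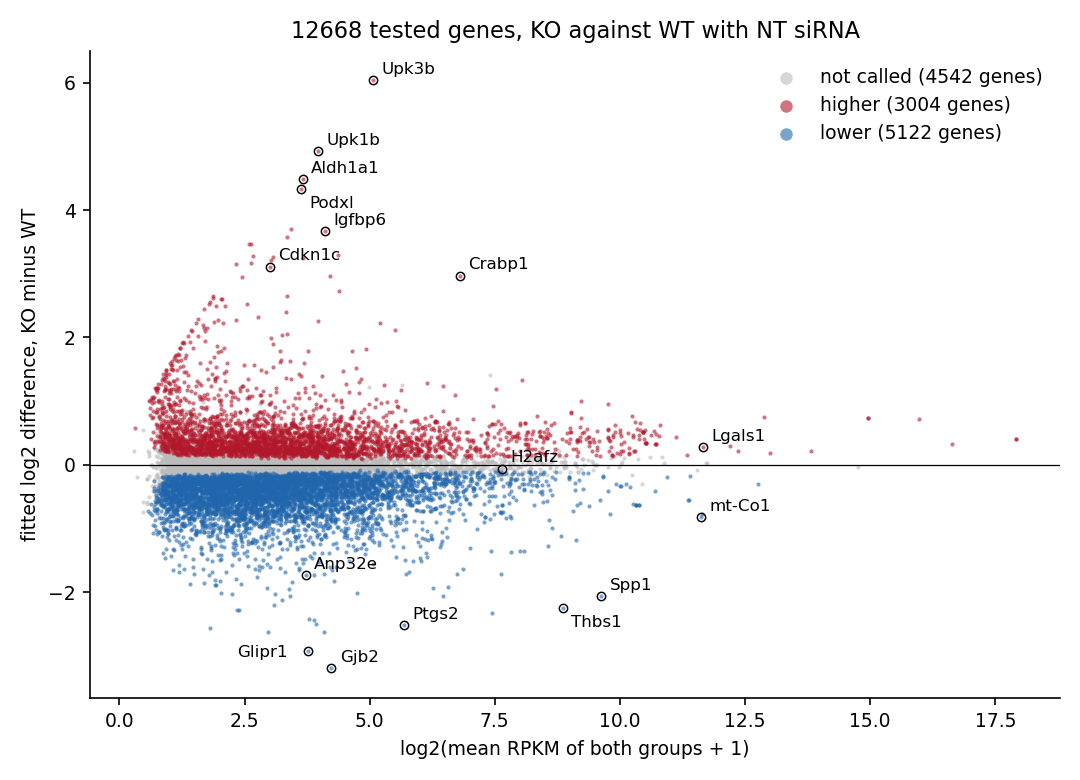
Each point is 1 of the 12668 tested genes, with the log2 of its mean RPKM over both groups plus 1 on the horizontal axis and the fitted log2 difference KO minus WT on the vertical axis. Red genes were higher (3004), blue genes lower (5122) and grey genes not called; Upk3b lies highest at 6.04 and Gjb2 lowest at −3.20.

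The largest rise was in Upk3b, followed by Upk1b, Aldh1a1 and Podxl. Of the 12 genes with the largest rises, 5 are on the list of markers of the mesothelium, the epithelial lining of the body cavities, and 1 is on the retinoic acid list. The mesothelial list has 22 of the 12668 tested genes and was drawn up with earlier results of these data known. These 5 members reached the 1 RPKM needed for testing through KO libraries alone, so their count is a description only. Upk3b (ENSMUSG00000042985, chr5:136038496-136044993), a uroplakin of the urothelium and mesothelium, was at 0.00962, 0 and 0 RPKM in WT and 62.5, 61.8 and 70.4 in KO. The WT group held 1 read of it, which puts the ratio of KO to WT at 19169 with a 95% counting interval of 3440 to 757122 (exact Poisson, counting error only). Its partner Upk1b (chr16:38773182-38800203), a tetraspanin uroplakin, had no read in WT and 27.8, 27.6 and 32.4 RPKM in KO, at least 2172-fold higher. Aldh1a1 (chr19:20492583-20643463), an enzyme that oxidises retinaldehyde to retinoic acid, was at 0.022, 0.056 and 0.153 RPKM in WT and 23, 22.8 and 23.9 in KO. All KO libraries of these genes lay far above all WT libraries. The fitted log2 differences were 6.04 ± 0.06, 4.92 ± 0.07 and 4.49 ± 0.06 (limma adjusted p = 9.1e-14, 3.7e-13 and 3.7e-13), and they depend on the 1 RPKM added before the logarithm.

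Podxl, a sialomucin of podocytes and mesothelium, was at 0.144, 0.222 and 0.119 RPKM in WT and 21.6, 20.5 and 25.3 in KO (4.33 ± 0.08, limma adjusted p = 6.8e-12). Ptn, the heparin-binding growth factor pleiotrophin, was at 0.648, 0.399 and 0.584 in WT and 21.6, 17.5 and 18 in KO (3.70). Igfbp6, which binds insulin-like growth factor II, was at 1.75, 1.32 and 1.41 in WT and 27.9, 29.5 and 35.5 in KO (3.67). These genes had some reads in every WT library and still did not overlap. Of the next 6 genes, Lrrn4 (3.47) and Gpm6a (3.47) are membrane proteins used as mesothelial markers, and Gpnmb (3.30) is a lysosomal and melanosomal glycoprotein. Trbc2 (3.28) encodes a constant segment of the T cell receptor, Bex2 (3.27) a small protein studied in brain, and Dcn (3.24) the collagen-binding proteoglycan decorin. Dcn varied most within a group, at 22.7, 16 and 27.3 RPKM in KO against 2.21, 0.861 and 1.26 in WT.

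The largest fall was in Gjb2. This gene (ENSMUSG00000046352, chr14:57098602-57104702), the gap junction protein connexin 26, was at 30.3, 34.4 and 34.3 RPKM in WT and 3.13, 2.7 and 2.33 in KO (−3.20 ± 0.09, limma adjusted p = 3.4e-10). Glipr1 (chr10:111985448-112002639), a cysteine-rich protein of the CAP family, was at 23.3, 22.3 and 23.4 in WT and 2.15, 2.25 and 2.1 in KO (−2.92 ± 0.07). No KO library reached the lowest WT library in either gene, and unlike the leading rises they kept a clear level in the lower group.

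Ptgs2, the inducible cyclooxygenase, was at 85, 92.3 and 83 RPKM in WT and 16.8, 13.2 and 13 in KO (−2.52 ± 0.12, limma adjusted p = 1.8e-08). Thbs1, the matricellular protein thrombospondin 1, was at 808, 737 and 751 in WT and 180.2, 149.8 and 150.4 in KO (−2.25). Thbs1 was among the abundant transcripts of the WT cells. Falls of similar size were fitted for Tll1, a tolloid metalloprotease (−2.63), and Tnfrsf11b, the decoy receptor osteoprotegerin (−2.29). Plac9a (−2.50) and Plac9b (−2.44) are near-identical copies, and how reads were split between them is not stated, so they are uncertain.

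In RPKM units the largest gains and losses were elsewhere. Hist1h4k, a replication-dependent histone H4 gene, went from 1239, 1491 and 1479 RPKM in WT to 1941, 2319 and 2210 in KO (0.62 ± 0.09, limma adjusted p = 7.8e-05), with Hist1h2al (0.76), Hist1h4m (0.65) and Hist1h4h (0.53) also higher. Histone H4 genes are close copies of each other, and the handling of shared reads is not stated. The galectin gene Lgals1 was at 2749, 3015 and 3031 in WT and 3473, 3605 and 3607 in KO (0.28 ± 0.05). On the other side stood the mitochondrial mt-Co1, a subunit of cytochrome c oxidase, at 4320, 3963 and 3824 in WT and 2591, 2035 and 2245 in KO (−0.82 ± 0.10, limma adjusted p = 4.1e-05), and mt-Co2 (−0.56). Spp1, the secreted phosphoprotein osteopontin, was at 1570, 1012 and 1243 in WT and 329.8, 258 and 315 in KO (−2.06 ± 0.14).

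**Figure D2:**
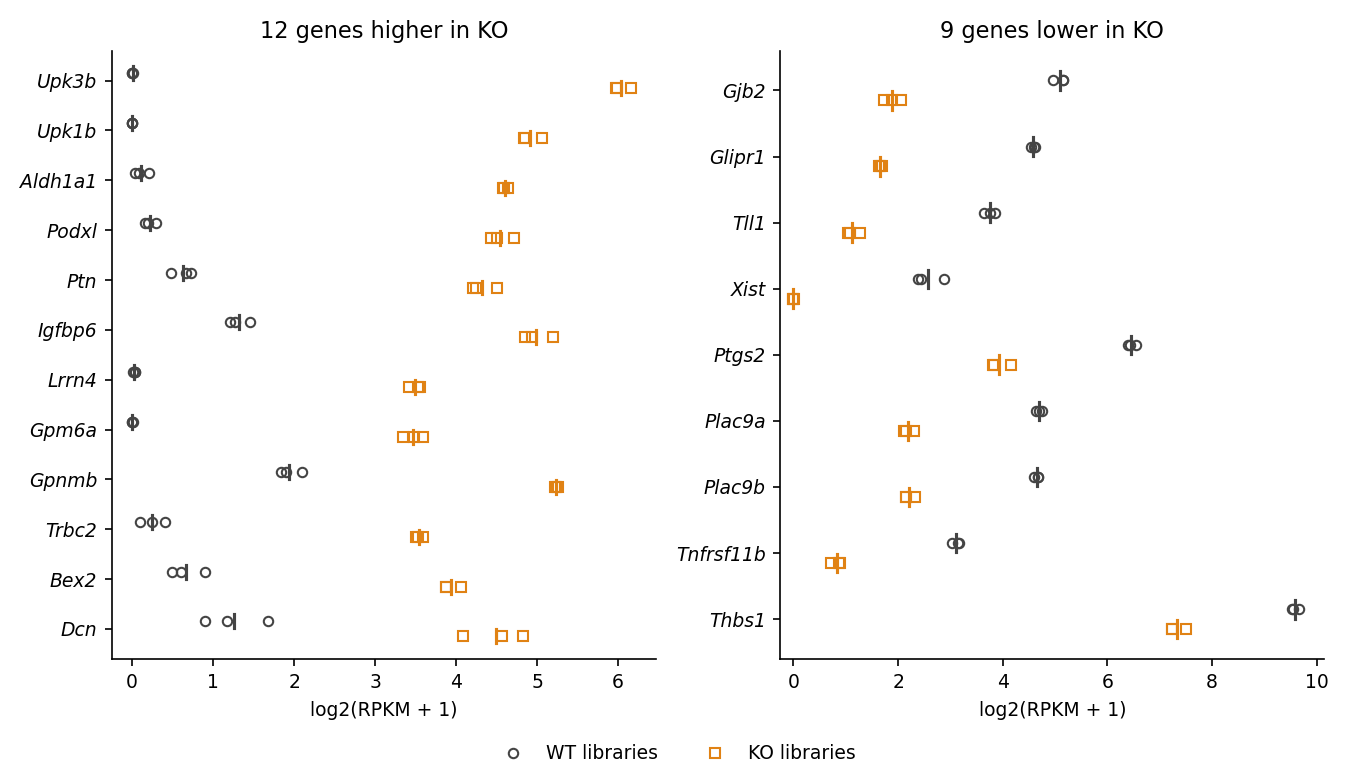
For the 12 genes with the largest rise (left) and 9 of the 12 with the largest fall (right), each symbol is 1 library, circles for WT and squares for KO, at its log2(RPKM + 1), and the short bars are group means over 3 libraries. No gene shown has overlapping groups, and Upk3b, Upk1b, Lrrn4 and Gpm6a lie at or near 0 in every WT library.

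The promoters of 3 leading rises and 3 leading falls, taken by rank, are shown with their CG dinucleotides marked. These are the sites of DNA methylation in mammals, the layer that H2A.Z is studied with. Each is the 250 bases before the annotated start in RefSeq's GRCm38.p6 (the mm10 assembly), from the first entry of the gene, read 5′ to 3′ on the gene's own strand, with CG in capitals. They are the first 3 genes of each ranked set that the promoter table holds. On the plus strand lie Upk3b at chr5:136038246-136038495 and Aldh1a1 at chr19:20492333-20492582. On the minus strand lie Ptn at chr6:36810180-36810429, Gjb2 at chr14:57104703-57104952, Tll1 at chr8:64206009-64206258 and Xist at chrX:103483234-103483483.
Upk3b: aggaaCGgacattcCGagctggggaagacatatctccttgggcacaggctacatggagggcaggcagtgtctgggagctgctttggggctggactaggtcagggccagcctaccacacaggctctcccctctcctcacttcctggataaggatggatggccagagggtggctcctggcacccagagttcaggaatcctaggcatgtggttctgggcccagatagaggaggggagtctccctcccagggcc
Aldh1a1: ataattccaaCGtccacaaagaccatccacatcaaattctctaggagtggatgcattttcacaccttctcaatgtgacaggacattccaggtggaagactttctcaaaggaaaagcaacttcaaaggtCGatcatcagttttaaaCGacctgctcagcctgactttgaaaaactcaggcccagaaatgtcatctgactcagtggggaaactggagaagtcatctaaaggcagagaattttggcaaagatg
Ptn: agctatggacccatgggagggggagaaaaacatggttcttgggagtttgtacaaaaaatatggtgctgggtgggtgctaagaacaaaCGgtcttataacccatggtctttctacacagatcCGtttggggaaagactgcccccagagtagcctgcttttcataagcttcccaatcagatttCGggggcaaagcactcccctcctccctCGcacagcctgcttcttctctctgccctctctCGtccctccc
Gjb2: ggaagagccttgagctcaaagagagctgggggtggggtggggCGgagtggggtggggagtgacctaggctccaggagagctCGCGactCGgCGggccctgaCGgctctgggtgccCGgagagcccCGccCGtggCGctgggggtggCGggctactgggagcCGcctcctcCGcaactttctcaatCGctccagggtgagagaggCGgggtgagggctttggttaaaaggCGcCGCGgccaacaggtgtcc
Tll1: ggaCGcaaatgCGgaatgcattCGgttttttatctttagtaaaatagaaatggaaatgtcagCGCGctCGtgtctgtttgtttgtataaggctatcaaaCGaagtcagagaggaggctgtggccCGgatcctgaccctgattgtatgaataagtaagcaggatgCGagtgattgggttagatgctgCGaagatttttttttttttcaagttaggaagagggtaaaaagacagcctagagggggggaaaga
Xist: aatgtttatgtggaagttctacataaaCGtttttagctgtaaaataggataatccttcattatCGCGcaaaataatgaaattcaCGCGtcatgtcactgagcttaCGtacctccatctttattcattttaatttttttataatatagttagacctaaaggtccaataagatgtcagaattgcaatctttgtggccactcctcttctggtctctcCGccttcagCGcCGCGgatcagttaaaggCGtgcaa
The promoters of the 3 rises hold 2 (Upk3b), 3 (Aldh1a1) and 5 (Ptn) CG dinucleotides, and those of the 3 falls hold 18 (Gjb2), 10 (Tll1) and 11 (Xist). Xist is one of the sex-linked genes above, and 3 promoters per direction do not describe a set. Among sets of genes the contrast was weaker. Of the tested genes, 8509 had an entry, with a median of 17 CG in these 250 bases. The median was 16 for the 2107 genes with an entry called higher and 17 for the 3627 called lower. For those that changed by at least 2-fold it was 10 (168 higher genes) and 13 (256 lower genes), and 29.8% and 23% of these promoters had 5 or fewer CG, against 10% of all tested. Both 2-fold sets were thus poorer in CG than the tested genes as a whole, the higher set more so.

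Short motifs were counted on both strands of the same windows. They were the TATA box written as TATAAA, the CCAAT box, the GC box written as GGGCGG, which itself contains CG, and the AP-1 site written as TGANTCA. The TATA box was found in 11.9% of the promoters higher by at least 2-fold and 10.5% of those lower by at least 2-fold, against 6.32% of all tested and 13% of the 27025 genes of the promoter table. The AP-1 site was found in 8.33% and 6.64%, against 3.98% of all tested and 6.87% of the table. The GC box was found in 56.5% and 49.2%, against 61.9% and 32.9%. CCAAT was found in 28.6% of the higher and 41% of the lower promoters, against 37.7% and 34.5%. A match is a string of letters and no evidence of binding, and no test was made. Of the 4 motifs, CCAAT was the one for which both 2-fold sets lay on opposite sides of the tested genes. Over all called genes the shares differed less: the TATA box was in 8.07% of higher and 6.12% of lower promoters.

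Gene lists drawn up for the cell type and the pathways of interest are described by how many measured members were called, beside the 23.7% higher and 40.4% lower of all genes tested. Fewer cells of a type and less RNA per cell cannot be told apart in bulk RNA. Of all tested genes, 320 were under 1 RPKM in every WT siRNA library and reached the minimum through KO alone, and 338 through WT alone. The filter favours a difference in such genes, so list members of this kind are counted apart where there are more than 2. Of the 25 mesothelial markers listed 22 were measured, and 11 of these, Upk3b, Upk1b, Podxl, Lrrn4, Gpm6a and Wt1 among them, reached the minimum through KO alone. Of the other 11, 9 rose and 1 fell (median 0.90, and −0.10 for all genes). Beyond the genes already described, the transcription factor gene Wt1 had no read in WT and was at 4.3, 4.35 and 4.6 RPKM in KO, at least 1148-fold higher. Krt18, a keratin of simple epithelia, was at 3.59, 2.93 and 3.05 in WT and 29.7, 30 and 35.3 in KO (2.96 ± 0.08, limma adjusted p = 1.5e-10), and the cadherin gene Cdh3 rose by 1.14. Sulf1, a heparan sulfatase, fell (−1.33), and Tbx18 did not pass the test (−0.20) unless WT library 3 was left out (−0.27). Summed over 24 markers of the table, the level was 103 to 115 RPKM in WT and 372 to 411 in KO. The epithelial list went from 15.5 to 18.5 RPKM in WT to 47.5 to 54.3 in KO, largely Krt18, which both lists hold, and 10 of its 14 markers, Epcam and Cdh1 among them, were under 1 RPKM in all 6 libraries. Cldn3, a tight junction gene of the same list, fell by 1.03. The part of other cells in these rises was not tested. Of the mesothelial list, 13 of the 24 were under 1 RPKM in every WT library and 2, Calb2 and Krt8, in every KO library. Calb2, a mesothelial marker, was at 0 in all 6 libraries. Krt8, a keratin gene that the mesothelial and epithelial lists both hold, was under 1 RPKM in all 6, unlike Krt18. Over all 22, 20 rose and 1 fell, and the same counts were found without library 1 of both groups and after centring.

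Of 16 measured fibroblast markers 8 rose, led by Dcn, Pdgfra, a platelet-derived growth factor receptor (1.14), and S100a4 (603, 549.8 and 619.8 RPKM in WT against 1201, 1146 and 1105 in KO). Fn1, fibronectin, was among the 3 that fell (−0.60 ± 0.11, limma adjusted p = 0.00044), a count of 1 after centring, and Thy1 was at 53.7, 46.4 and 49.7 in WT and 48.8, 48 and 47.8 in KO (−0.05, not called, and 0.08 after centring). Of 9 adipocyte markers 3 reached the minimum through KO alone, and of the other 6, 4 rose and 2 fell. Lpl, lipoprotein lipase, was near 0 in WT and at 2.51, 1.91 and 2.5 RPKM in KO (1.71), and Cebpa, a transcription factor of fat cell differentiation, rose by 1.45, whereas Plin2, which coats lipid droplets, fell by 0.91. Adipoq was under 1 RPKM in all 6 libraries and Plin1 at 0, and the summed level of the 13 markers was 57.9 to 62.1 RPKM in WT and 54.8 to 57.9 in KO.

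In the retinoic acid list 4 of 15 measured members reached the minimum through KO alone and 2 through WT alone, and of the other 9, 8 rose and none fell. Besides Aldh1a1, the binding proteins stood out. Crabp1 was at 24.8, 23.6 and 24.1 RPKM in WT and 198, 194 and 196 in KO (2.97 ± 0.06, limma adjusted p = 2.2e-11), and Crabp2 was at 19.3, 14 and 15.3 in WT and 73.5, 72.3 and 73.9 in KO (2.12). Both carry retinoic acid inside the cell, and their KO libraries lay within a few per cent of each other. Rbp4, the retinol carrier of the blood, fell from 3.83, 1.93 and 2.33 to 0.198, 0.216 and 0.0675 (−1.64), as did Rarres1 (−0.64).

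Genes that mark position in the embryo went both ways. Of 33 measured transcription factors of this kind, 8 reached the minimum through KO alone and 6 through WT alone, and of the other 19, 5 rose and 9 fell. Tbx4, a T-box factor of the hindlimb and lung, was at 0.305, 0.325 and 0.262 RPKM in WT and 6.89, 6.43 and 5.69 in KO (2.50), and Gata4, a factor of heart and gonad, rose by 1.77. Tbx5, the T-box factor of the forelimb and heart, was at 2.77, 2.24 and 2.84 in WT and 0.307, 0.349 and 0.372 in KO (−1.43), and Tbx20 (−1.33) and Msx2 (−1.18) fell as well. Tbx4 and Tbx5 mark hind and fore limbs, and each was higher in the group where the other was lower. Each was also under 1 RPKM in every NT siRNA library of its lower group, so the pair is a description only. Of 11 measured Hox genes 4 rose and 4 fell. Hoxb9 went from 0.0351, 0.0805 and 0.0306 to 1.32, 1.76 and 1.92 RPKM (1.34), and Hoxd13, the most distal limb gene of its cluster, from 43.2, 39.5 and 38.7 to 28.2, 26.5 and 27.6 (−0.54).

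Contractile genes of smooth muscle and myofibroblasts fell in 10 of 13 measured and rose in 1 (median −0.78), with the same counts after centring. Cnn1, calponin 1, was at 113, 124 and 125 RPKM in WT and 30.1, 30.6 and 32.3 in KO (−1.93 ± 0.07, limma adjusted p = 1.6e-09). Myl9, a regulatory myosin light chain, was at 384, 379.8 and 399 in WT and 148, 157 and 146 in KO (−1.36), and the actin nucleator Lmod1 fell by 1.39. Mylk, the kinase of myosin light chains, rose by 0.62 from a level under 1 RPKM. The skeletal muscle actin gene Acta1 also fell, from 9.78, 12.6 and 11.2 to 3.23, 3.06 and 2.73 (−1.60). It was 1 of 13 skeletal muscle markers, the other 12 being under 1 RPKM in both groups.

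The matrix was changed gene by gene. Matricellular proteins and proteoglycans fell in 8 of 15 and rose in 3 (median −0.77), with Thbs1, Spp1 and Ogn falling most. Ogn, osteoglycin, varied widely within groups, at 39.9, 19.6 and 27.8 RPKM in WT and 9.75, 3.66 and 10 in KO (−1.82 ± 0.31). Collagen chains rose in 8 and fell in 8 of 20. Col5a2, a chain of fibril-forming collagen V, was at 270.5, 228 and 240.4 in WT and 102, 89.3 and 94.6 in KO (−1.36), while Col1a1 (0.57) and Col1a2 (0.64), the chains of fibrillar collagen I, rose. The basement membrane chains were split as well, with Col18a1 (1.24), Col4a5 (0.94) and Col4a6 (1.30) higher and Col4a1 (−0.46) and Col4a2 (−0.53) lower. Elastic fibre genes were split as well, 8 and 8 of 20. Efemp1, fibulin 3, went from 5.55, 4.07 and 3.93 to 35.7, 35.4 and 34.7 (2.73), and Fbln1 rose by 1.65. Fbln5 (−0.92) and the collagen crosslinking enzyme Lox (138, 115 and 118 against 71.6, 63.8 and 65.4, −0.87) fell. Within 1 family fibulins thus moved in both directions. Among proteases and inhibitors, the metalloproteinases Mmp3 (12.6, 8.76 and 9.39 against 36, 37.6 and 39), Mmp13 (1.54) and Mmp19 (1.48) rose, and the inhibitor Timp1 fell from 201, 227 and 225 to 122, 116 and 121 (−0.86).

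Of secreted growth regulators, the insulin-like growth factor list rose in 7 of 11 and fell in 4. Igfbp3 was at 0.346, 0.324 and 0.335 RPKM in WT and 5.31, 5.1 and 5.97 in KO (2.27), and Igfbp5 at 0.346, 0.284 and 0.275 and 5.74, 4.84 and 4.91 (2.24). Igfbp2 moved the other way, from 89, 75.7 and 80.5 to 33.9, 35.5 and 43.9 (−1.10), so binding proteins of 1 family changed in opposite directions. Tgfbi, a matrix protein induced by transforming growth factor beta, rose by 2.25. Of 10 measured secreted Wnt regulators and ligands 5 rose and 4 fell, and 3 and 3 of the 7 that did not reach the minimum through 1 genotype alone. The Wnt antagonists Dkk3 (18.7, 13.2 and 15.3 against 3.23, 3.55 and 3.05, −1.96) and Dkk2 (−1.41) fell, and the ligands Wnt5a (−0.41) and Wnt10b (−0.75) fell too. The antagonists Sfrp1 (0.77) and Sfrp2 (0.68) rose, as did Rspo1, which amplifies Wnt signals (1.32). Fgf7 (−1.48) and Pdgfd (−1.39) fell, and Gas6, a ligand of TAM receptors, rose by 1.59. Of 8 complement genes 4 reached the minimum through KO alone and 1 through WT alone, and of the other 3, 2 rose and 1 fell. The protease gene C1s1 (1.34), the inhibitor Serping1 (1.24) and the decay accelerating factor Cd55 (1.41) rose, and Cd59a, which blocks the membrane attack complex, fell by 1.64.

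Interferon-stimulated genes were lower as a group: 34 of 43 measured fell and 1 rose (median −0.42), and 27 fell and 1 rose after centring. Without the 4 that reached the minimum through WT alone and the 1 through KO alone, 30 of 38 fell and none rose. Irgm1, an immunity-related GTPase, was at 26.7, 24.9 and 24.2 RPKM in WT and 9.1, 8.69 and 9.21 in KO (−1.39 ± 0.05, limma adjusted p = 1.5e-09). Ifit3, of a family that binds foreign RNA, was at 18.3, 13.6 and 12.6 in WT and 6.59, 5.61 and 5.24 in KO (−1.20), and Ifit1 fell by 1.09. Dhx58, an RNA sensor of the same pathway, was the one that rose (0.41). Without library 1 of both groups 29 fell and 1 rose. The 10 macrophage markers summed to 4.68 to 5.11 RPKM in WT and 3.32 to 3.85 in KO, with 8 of them under 1 RPKM in both groups and Tyrobp at 0, and their part was not tested. Among 16 inflammatory secreted factors, led by Ptgs2, 3 reached the minimum through WT alone and 1 through KO alone, and of the other 12, 6 fell and 2 rose. Cxcl12 (1.13), Cxcl16 (0.84) and the constitutive cyclooxygenase Ptgs1, at 4.32, 4.27 and 4.03 in WT and 14.9, 14.5 and 16 in KO (1.63), were the members of the whole list that rose, so the 2 cyclooxygenases changed in opposite directions. Of 15 genes of MHC class I presentation 3 rose and 5 fell (median −0.06), and 5 rose and 3 fell after centring. The number rising was 1 without WT library 2, KO library 2 or KO library 3. Tapbp, tapasin, rose by 0.54. The class I genes H2-D1 (−0.91) and H2-K1 (−0.46) fell, though they have close relatives whose reads may be shared.

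Genes of mitosis fell in 21 of 28 and rose in 1 (median −0.33), and fell in 16 after centring. Cenpe, a kinetochore motor, was at 27.2, 17.9 and 19.6 RPKM in WT and 11, 8 and 7.91 in KO (−1.17), and Nusap1 (−1.01), Bub1 (−0.96) and the proliferation marker Mki67 (−0.85) fell. Aurkb, the kinase of the chromosomal passenger complex, rose by 0.26. S phase genes were mixed, with 11 higher and 13 lower of 34, and 19 and 9 after centring. The licensing factor Cdt1 was at 12.2, 12.6 and 15.6 in WT and 22.2, 25.2 and 24.2 in KO (0.79), whereas cyclin E2, Ccne2, fell by 0.98. Cdkn1c, an imprinted inhibitor of cyclin-dependent kinases, changed most among the cell cycle lists, from 0.584, 0.691 and 0.706 to 14.3, 12.5 and 13.3 RPKM (3.11 ± 0.07, limma adjusted p = 4.8e-11). Among the other imprinted genes Nnat rose by 1.22 and Peg10 fell by 1.02, and H19 was at 142, 104 and 117 in WT and 120.1, 114 and 122 in KO (−0.02, not called, and 0.11 after centring). Targets of p53 fell in 17 of 32 and rose in 6 (15 and 10 after centring, and 3 rising without WT library 2). Pmaip1, a proapoptotic BH3 protein, fell from 17.1, 15.4 and 14.6 to 5.89, 5.5 and 5.72 (−1.32), and Plk2 from 70.6, 72.4 and 70.2 to 29.7, 28.5 and 27.4 (−1.29).

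In metabolism, glycolysis and hypoxia genes rose in 15 of 26 and fell in 3 (median 0.22). Gpi1, glucose-6-phosphate isomerase, was at 39.8, 44.4 and 43.9 RPKM in WT and 68.3, 69.2 and 68.4 in KO (0.67 ± 0.04, limma adjusted p = 2.4e-07), Pdk1 rose by 0.66 and the prolyl hydroxylase Egln3 by 1.25. Adm, adrenomedullin, fell by 1.15. Cholesterol synthesis genes fell in 12 of 24 and rose in 5 (median −0.10), and fell in 11 and rose in 8 after centring (median 0.02). Msmo1 (−1.10) and Idi1 (−1.05), enzymes of the pathway, fell. Protein-coding mitochondrial genes fell in 10 of 13 and rose in 1, but 6 fell and 2 rose after centring. Without KO library 2 the number falling was 6, and the single rise was lost without KO library 1 or 2 or any 1 WT library. The lowest was mt-Cytb at −1.12. The glutathione transferases Gsta4 (2.32) and Gstm1 (12.8, 12.2 and 12.4 against 42.3, 48 and 48.1, 1.81) rose, and the extracellular superoxide dismutase Sod3 fell by 1.71.

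Signalling and guidance genes were split. The list of transforming growth factor beta and bone morphogenetic protein genes held 12 higher and 8 lower of 29, with the ligand Bmp2 higher by 1.03, Tgfb1 by 0.72, and the activin subunit Inhba (−1.11) and the receptor Bmpr1a (−0.96) lower. Among growth factors and their receptors 12 rose and 10 fell of 26. Fgf18 (1.51) and the Kit ligand Kitl (1.15) rose, and Hbegf, an epidermal growth factor receptor ligand, fell by 0.91. Of 12 semaphorin and plexin genes 5 rose and 4 fell, the coreceptor Nrp1 (−1.03) and its ligand Sema3a (−0.91) both falling and Sema3c (0.78) rising. Of 12 Eph and ephrin genes 5 rose and 3 fell, with the receptor Ephb6 higher by 1.38 and Epha2 lower by 0.64.

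Stress and early response genes moved little as lists. Of 20 immediate early genes 8 rose and 9 fell, Dusp6, a phosphatase of ERK, by 0.87 and Klf6 by −0.82. Of 23 genes of the unfolded protein and amino acid response 7 rose and 5 fell (3 after centring), with the pseudokinase Trib3 (0.89) and the factor Ddit3 (0.61) higher and the chaperones Hsp90b1 (−0.84) and Hspa5 (−0.57) lower. Of 75 cytosolic ribosomal protein genes 18 rose and 25 fell, but 26 rose and 9 fell after centring, and 16 fell without WT library 2. None changed by 2-fold. Those counts thus turn with the scaling, and many of these genes have processed copies whose reads may be shared.

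The genes that act with ANP32E on H2A.Z showed small differences. Of 28 subunits of the complexes that place or remove H2A.Z, 7 rose and 7 fell and none changed by 2-fold, with a median of −0.07 that became 0.05 after centring. Vps72, the H2A.Z-binding subunit of both depositing complexes, was at 7.34, 7.85 and 7.79 RPKM in WT and 9.56, 10.1 and 10.6 in KO (0.36 ± 0.05, limma adjusted p = 5.5e-05), Trrap rose by 0.45, and the acetyltransferase Kat5 by 0.28. Epc2 (9.7, 7.37 and 7.14 against 4.85, 3.65 and 3.67, −0.84), Actr6 (−0.51) and Yeats4 (−0.32) fell. Of the 28, 14 were called, against 64.1% of all genes. Among other histone genes H2afx (0.49), H2afj (0.52) and Hist1h1c (0.51) rose and the linker histone H1f0 fell (−0.47). Of 24 silencing genes 6 rose and 9 fell, and 11 rose and 8 fell after centring. The H3K9 methyltransferase Ehmt2 rose most (17.9, 17.6 and 17.4 against 30.1, 30.4 and 30.9, 0.76), and Uhrf1, which guides maintenance methylation, rose by 0.41. Atrx, an X-linked remodeller, fell from 14.1, 9.58 and 9.45 to 6.72, 4.02 and 4.05 (−1.03), and Mphosph8, of the HUSH complex (−0.74), and the remodeller Hells (−0.62) fell as well. Polycomb genes rose in 10 and fell in 7 of 22, with Eed lowest (−0.92) and Cbx6 highest (0.56). None of 21 germline genes known to be silenced by methylation reached the level needed for testing.

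**Figure D3:**
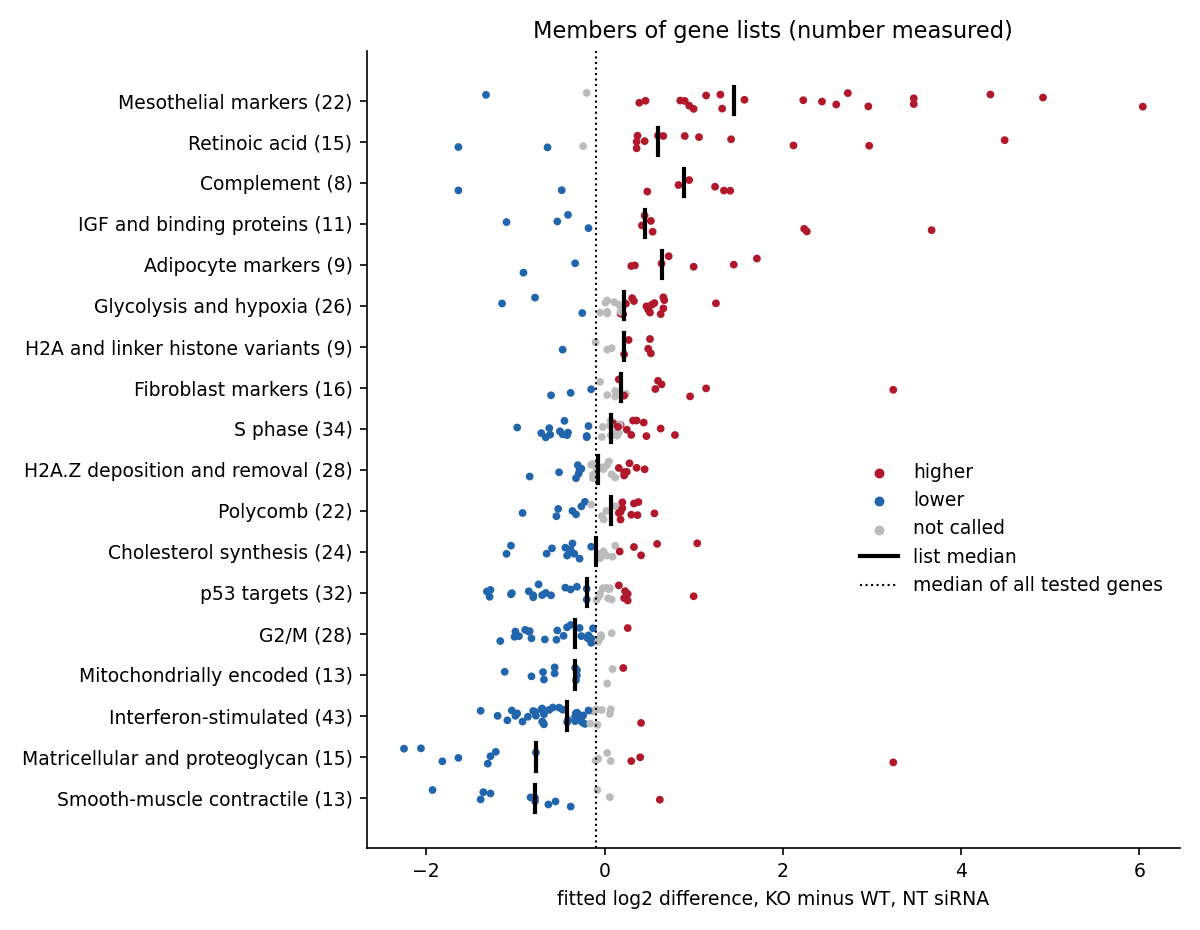
Each point is a measured member of a gene list at its fitted log2 difference KO minus WT, red if higher, blue if lower and grey if not called, with black bars at the list medians and a dotted line at the median of all tested genes (−0.10). Mesothelial markers spread from −1.33 to 6.04, with 11 of 22 at the minimum through KO alone, and smooth muscle genes lie lowest with a median of −0.78.

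Genes of some chromosomes moved together. Over the autosomes and X, medians of the fitted difference ran from −0.31 over the 420 tested genes of chromosome 14, of which 50 (11.9%) were higher and 270 (64.3%) lower, to 0.17 over the 422 genes of chromosome 19, of which 212 (50.2%) were higher and 74 (17.5%) lower. Chromosome 15 (0.17; 233 of 473 genes higher and 86 lower) and chromosome 17 (0.16; 288 of 589 higher and 117 lower) resembled chromosome 19. Against the mean of the WT libraries, the 3 KO libraries had chromosome 14 medians of −0.25, −0.38 and −0.33 and chromosome 19 medians of 0.23, 0.15 and 0.16, while no WT library left the range of −0.04 to 0.07 on any chromosome from 1 to X. Among these chromosomes, all 3 KO libraries were above all WT libraries on 15, 17 and 19 alone. The 6 tested genes of chromosome Y, 4 of them higher and 1 lower, had a median of 1.40. With H2AZ siRNA the medians were −0.29 on chromosome 14, 0.10 on 15, 0.14 on 17 and 0.14 on 19. In DMSO they were −0.11, 0.00, −0.06 and 0.07, and the lowest was −0.45 on chromosome 10. Anp32e lies on chromosome 3, whose median was −0.22. Gjb2 and the Plac9 copies lie on chromosome 14, and Igfbp6 and Krt18 on chromosome 15, and their own changes were many times the medians of their chromosomes.

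**Figure D4:**
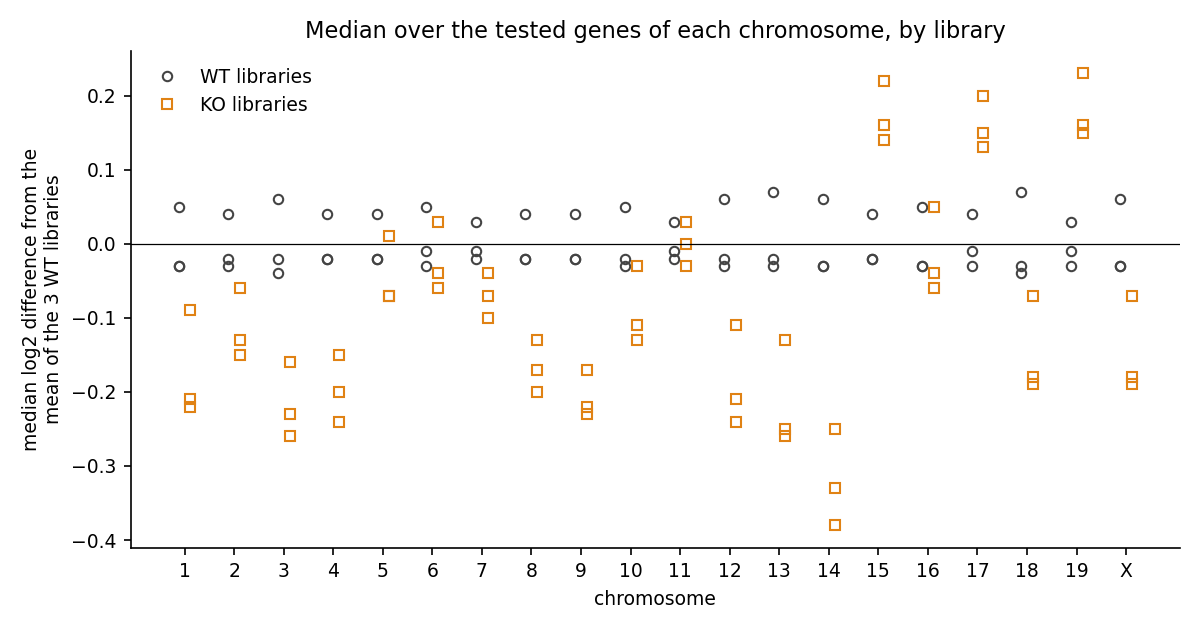
Each symbol is the median, over the tested genes of 1 chromosome in 1 library, of the log2(RPKM + 1) difference from the mean of the 3 WT libraries, circles for WT and squares for KO. Chromosome Y is not drawn. KO libraries lie above all WT libraries on chromosomes 15, 17 and 19, and lowest on chromosome 14.

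With NT siRNA the median difference also went down with transcript length. With the tested genes in 5 classes of equal number by the length recovered from the table, medians from shortest to longest were −0.03, −0.05, −0.09, −0.12 and −0.18. After centring they were 0.09, 0.08, 0.04, 0.01 and −0.06, so the longest class alone stayed below 0. In DMSO they were −0.04, −0.13, −0.09, −0.07 and −0.00, without such an order. In the longest class (5890 bases and more) 16.3% were higher and 51.3% lower, and in the shortest 22.7% and 26.2%. Within the longest class WT library 1 lay at 0.09 and the other 2 at −0.04 and −0.05, and the KO libraries at −0.09, −0.24 and −0.22, so library 1 of each group was the highest. The part of length in the counts above was not tested.

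With H2AZ siRNA the same comparison, in 6 other libraries, gave 2563 genes higher (20.2%) and 5409 lower (42.7%) in KO. Of the 3004 genes higher with NT siRNA 2289 (76.2%) were higher there too and 5 lower, and these are 89.3% of the genes higher with H2AZ siRNA. Of the 5122 lower genes 4584 (89.5%) were lower and 2 higher, 84.7% of the other list. A test of the difference between both comparisons called 1 gene of 12668 (0.00789%), H2afz itself, which was at 17.5, 16.6 and 17.4 RPKM in WT and 26.9, 26.4 and 30.4 in KO with H2AZ siRNA. Its KO minus WT difference was −0.06 with NT siRNA and 0.67 with H2AZ siRNA (difference −0.72 ± 0.08, limma adjusted p = 0.0122). At an unadjusted p under 0.05 there were 1095 genes (8.64%), and none but H2afz passed after adjustment. Upk3b differed by 5.71 and Gjb2 by −3.27 with H2AZ siRNA, against 6.04 and −3.20 with NT siRNA.

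In DMSO, in 2 libraries per group of a table normalised separately, 3219 of 16435 entries (19.6%) were higher and 3758 (22.9%) lower in KO. Of the 2900 genes higher with NT siRNA that were also tested there, 805 (27.8%) were higher and 658 (22.7%) lower, and of 4915 lower genes 1469 (29.9%) were lower and 720 (14.6%) higher. Among the genes tested in both, 2220 were higher and 3067 lower in DMSO, and the 805 and the 1469 are 36.3% and 47.9% of these. Of the genes that rose by at least 2-fold, 174 of 239 (72.8%) were higher in DMSO and 25 lower, and of those that fell by at least 2-fold 170 of 369 (46.1%) were lower and 41 higher. The large rises thus recurred more often by count than the large falls, a difference that was not tested. Xist was at 169.7 and 181 FPKM in WT and 0.923 and 0.579 in KO, so that difference was present there too. Upk3b was at 0.0556 and 0.108 FPKM in WT and 372 and 396 in KO.

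Several leading genes were not called in DMSO. Ptn was at 7.15 and 9.78 FPKM in WT DMSO and 9.64 and 10.4 in KO DMSO (0.24), and Cdkn1c at 2.97 and 4.54 against 2.67 and 3.04 (−0.28). Both had been far apart with NT siRNA, where WT levels were under 1 RPKM. Ptgs2 was at 11.6 and 10.3 against 9.59 and 7.42 (−0.34). Levels in RPKM and FPKM come from separate tables, so only the differences within each are set side by side. Spp1 was higher in KO in DMSO, at 289 and 282 against 180.1 and 141 (0.84), and lower with NT siRNA (−2.06). List counts differed as well: cholesterol synthesis genes fell in 22 of 24 in DMSO and rose in none, and adipocyte markers rose in 2 and fell in 4 of 8.

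**Figure D5:**
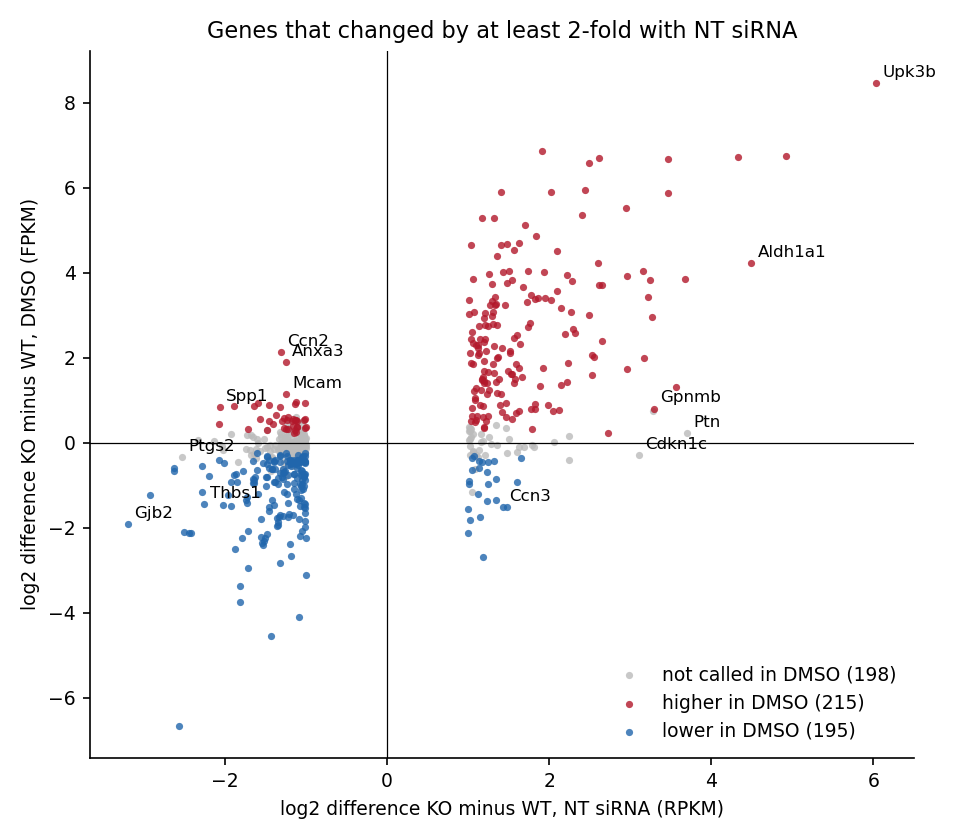
Each point is a gene that changed by at least 2-fold with NT siRNA and was tested in DMSO (239 higher and 369 lower genes), with the log2 difference KO minus WT with NT siRNA on the horizontal and in DMSO on the vertical axis. Colours give the call in DMSO; Upk3b and Aldh1a1 are high in both, Ptn and Cdkn1c lie near 0 in DMSO, and Ccn2 and Ccn3 lie in opposite quadrants.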

How the data were processed

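Total RNA of 12 siRNA libraries and 10 libraries of a second experiment had been sequenced from a stranded total RNA kit in paired reads of 150 bp, per the labels' protocols. The deposited RPKM table and the deposited FPKM table were made by the authors; the submitters' processing notes name STAR and mm10 without saying which step gave these values. Whether counting used strand or shared reads is not stated. Values were tested as log2(value + 1) with limma 3.58.1 in R 4.3.3, with a mean-variance trend, all 12 siRNA libraries in 4 groups, and Benjamini-Hochberg adjusted p under 0.05. Genes needed 1 RPKM in 3 of 12 libraries, and entries of the FPKM values at least 1 in 2 of 10.

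Library totals and gene lengths were recovered from the steps of the RPKM values. Of 43432 entries 42462 have a symbol, and 12157 tested genes (96%) were placed on RefSeq's GRCm38.p6. On simulated data for this comparison the fit recovered 82 of 100 genes changed by 0.5 and 94 of 100 changed by 1 on the log2 scale, with 5 false calls among 12468 unchanged genes. The simulated spread was drawn independently for each gene and library, and far fewer genes were changed than were called here. Deviations that genes of a library share were left out, so these numbers do not measure the error in the real data.

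Named were the 12 genes with the largest rise and the 12 with the largest fall among called genes with a mean of at least 5 RPKM in a group and groups that did not overlap, the 5 with the largest RPKM gain and loss, up to 3 called genes per direction of each list, the ANP32 and H2A.Z genes, and called genes that moved oppositely in DMSO. Some genes that this rule gives are not reported here. Further list members (Krt18, Cdh3, Wt1, Bub1 and Mki67 among them) were chosen after their values were seen. The comparison, the members and the lists were chosen with earlier results of these data known. Alternatives changed the pseudocount, the filter, the scaling, the model, the replicate block and the libraries.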

Additional observations from a re-analysis of the deposited data

Results flagged for a closer look

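H2afz, which encodes H2A.Z, was the 1 gene whose difference between KO and WT was itself called different between the siRNAs. With NT siRNA minus H2AZ siRNA the difference was −0.72 ± 0.08 on the log2(RPKM + 1) scale (limma adjusted p = 0.0122). The KO level was close to WT with NT siRNA and above it, in 3 of 3 libraries, with H2AZ siRNA.

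In 2766 of the 11906 genes tested in both tables (23.2%), all 3 KO libraries lay on one side of all WT libraries with NT siRNA and both KO libraries on the other side in DMSO. Of these, 1309 were called in both comparisons, 66 of them with a 2-fold difference with NT siRNA, and 51 are named here. The tables were normalised separately, DMSO has 2 libraries per group, and the difference between the tables was not tested. In the pairs below the first value is the log2 difference KO minus WT with NT siRNA and the second that in DMSO.

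By the smaller of both differences, 6 genes led among the annotated genes called in both with a mean of at least 5 RPKM or FPKM in a group of each table. Ccn3, a matricellular protein, was at 1.43 and −1.51, Mapk13, a p38 kinase, at 1.34 and −1.35, and Steap3, a ferrireductase, at 1.23 and −1.38. In the opposite sense, Ccn2, connective tissue growth factor, was at −1.31 and 2.13, Anxa3, an annexin, at −1.25 and 1.89, and Mcam, an adhesion molecule, at −1.24 and 1.15.

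Higher with NT siRNA and lower in DMSO were also the secreted signals Bmp2 (1.03 and −1.81), Cxcl12 (1.13 and −1.20), Kitl (1.15 and −1.75) and Sfrp2 (0.68 and −4.25). The matrix genes Col18a1 (1.24 and −0.45), Col1a1 (0.57 and −0.98) and Fbln1 (1.65 and −0.36) went the same way. So did Pdgfra (1.14 and −0.43), S100a4 (0.96 and −1.56), Lgals1 (0.28 and −0.98), Tapbp (0.54 and −1.21), Ddit3 (0.61 and −0.40), Dhx58 (0.41 and −0.85) and the histone gene H2afj (0.52 and −1.02). Fibroblast markers were thus among the genes whose direction differed between the tables.

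Lower with NT siRNA and higher in DMSO were Anp32a (−0.54 and 0.31) and Anp32b (−0.26 and 0.38), both relatives of Anp32e. The class I genes H2-D1 (−0.91 and 1.18) and H2-K1 (−0.46 and 2.61) went the same way, as did Spp1 (−2.06 and 0.84), Rbp4 (−1.64 and 0.86), Pmaip1 (−1.32 and 0.85), Inhba (−1.11 and 0.37) and Hbegf (−0.91 and 0.84). The remaining called genes were Bmpr1a (−0.96 and 0.33), Epc2 (−0.84 and 0.36), Hells (−0.62 and 0.44) and Wnt5a (−0.41 and 1.58).

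For 18 more the groups did not overlap in DMSO but the difference was not called there. With NT siRNA the higher of these were Tgfbi (2.25), Gstm1 (1.81), Mmp19 (1.48), Ehmt2 (0.76), Col1a2 (0.64), Cbx6 (0.56), Hist1h4h (0.53), Hist1h1c (0.51), H2afx (0.49) and Vps72 (0.36). The lower were Sulf1 (−1.33), mt-Cytb (−1.12), Igfbp2 (−1.10), Atrx (−1.03), Bub1 (−0.96), mt-Co1 (−0.82), Epha2 (−0.64) and mt-Co2 (−0.56).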

How the results depend on the processing

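Of the 177 genes named with a fitted difference, 173 to 177 kept direction and call under each alternative that tested all of them, and 143 of 143 with a minimum of 5 RPKM. With 1 library left out at a time, 2740 to 2875 genes were higher and 4436 to 5415 lower, 247 to 269 and 286 to 496 of them by at least 2-fold, and no single library moved these counts by over 1.5 times. The minimum of 5 RPKM left 1985 genes higher, 118 by at least 2-fold, with fewer genes tested. The counts of 2-fold changes followed the scale: 411 higher and 749 lower with 0.1 RPKM added in place of 1, and 441 and 829 with limma-voom on recovered reads, which came out whole within 0.01 for 100% of the 32935 genes above 0 and gave 2998 higher and 5175 lower in all. Centring left 244 genes lower and 314 higher by at least 2-fold. It left all 3004 higher calls and 3780 of the 5122 lower calls in place, and raised the genes higher with H2AZ siRNA from 2563 to 4281. Without a filter 3711 were higher and 5491 lower, and with only the groups compared 2760 and 4666.

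The limma test of the difference between siRNAs called 2 genes with the minimum of 5 RPKM (H2afz and Gm8203), 3 after centring (those and Gja1), and 0 of 32935 without a filter, where 1958 had an unadjusted p under 0.05. The cause was not tested. The differences of 3 genes, all close to 0, changed sign without being called. H19 was at 0.11 after centring, 0.07 without the 7SL reads and 0.09 without library 1 of both groups, and ran from −0.12 to 0.10 with 1 library left out. H2afz was at 0.07 after centring and 0.03 without the 7SL reads. Thy1 was at 0.08 and 0.03, and from −0.10 to 0.00 with 1 library left out. The alternatives without the 7SL reads and without library 1 of both groups were chosen after seeing the data.

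The deviations of WT and KO libraries of the same number correlated at 0.319, 0.109 and 0.023 across genes, and those of different number at −0.246 to 0.176. The numbers were not taken to pair the samples, though the 0.319 of the libraries numbered 1 was the highest of these values. With the replicate number as a block 3040 genes were higher and 5316 lower, 256 and 379 by at least 2-fold, and the test between siRNAs called 2 (H2afz and Hnrnpa1l2-ps2). Depth limits the genes close to 0, where 1 read per kilobase was worth 0.0219 to 0.0262 RPKM.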
